A study of Mus musculus with 49 samples.

Results

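Immediate early genes are switched on within minutes of a stimulus, from promoters that serum response factor and CREB occupy beforehand, and their messenger RNAs are short-lived. The Fos and Jun families pair through leucine zippers into the AP-1 transcription factor, Egr1 is a zinc finger transcription factor, and Dusp1 is a phosphatase that switches MAP kinases off again. In tissue taken apart with enzymes these genes are also known to respond to the handling itself, and heat shock genes of the Hspa1 type do so as well.

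The members were the 10 genes Fos, Fosb, Jun, Junb, Jund, Ier2, Dusp1, Egr1, Atf3 and Hspa1a, chosen by name. Of these, 8 were among the 13093 genes of the expression table and are described here. The expression of Junb and Hspa1a was not analysed here, and only their promoter windows are mentioned. The 49 samples are 49 individual cells from microdissected metanephric mesenchyme, the tissue that gives rise to nephrons and kidney stroma, of mouse embryos at 11.5 dpc (Theiler stage 19). All carried the Tg(Crym-EGFP)82Gsat reporter on a mixed background and both sexes were used. Per the labels' protocols, the dissection followed GFP, with some cells from outside the labelled domain, and cells were freed with trypsin and captured on a Fluidigm C1 chip. All went through the same handling, so that expression before and during dissociation cannot be told apart. Since the source embryo or litter of a cell is not named, all 49 were treated as a single sample without p-values. The median cell detected 8 of 16 nephron progenitor and 9 of 18 stroma list genes. Cell 25 detected 10 of 11 ureteric bud list genes (at most 3 in any other cell), and cell 27 detected 8 of 9 endothelial list genes (at most 1 in the others). Cell 25 also detected 12 of the 18 stroma list genes.

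Values are RPKM, reads divided by gene length and by the mapped reads in that cell, and "detected" means 1 RPKM or more. The RPKM values rose in fixed steps from cell to cell, and the smallest step of each gene is the worth of 1 read. After scaling by the relative depth of each cell, 197 of the 211 values above 0 of the 7 members other than Atf3 were whole numbers of reads within 0.02 of a read. Jun, Jund and Ier2 each consist of 1 exon, so that their deposited span is their length. With the step as 1 read, each of the 3 gave 1.84e+06 mapped reads for the median cell. The estimates ran from 1.28e+06 to 2.80e+06 reads in 47 cells, but were 63745 reads in cell 3 and 85079 reads in cell 7. In the median cell, 1 RPKM corresponded to between 2.80 reads for Ier2 and 6.95 reads for Fosb. In cells 3 and 7 every detected member rested on 1 or 2 reads, and the main results are given again without them.

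The sequences just upstream of 4 members are shown because they hold letters of the cAMP response element or, in Jun, of a form resembling it. Through this element CREB is known to act on immediate early genes. The sequences are from RefSeq (GRCm38.p6, each on the strand of its gene, ending at the base before the annotated start). Capitals mark the core of the cAMP response element TGACG, an 8-base form resembling the element, TGACNTCA, or the TATA box TATAAA, on either strand. Fos lies at chr12:85473740-85473889 on the plus strand, Fosb at chr7:19310046-19310195, Jun at chr4:95052223-95052372 and Dusp1 at chr17:26508473-26508672, these 3 on the minus strand.

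Fos: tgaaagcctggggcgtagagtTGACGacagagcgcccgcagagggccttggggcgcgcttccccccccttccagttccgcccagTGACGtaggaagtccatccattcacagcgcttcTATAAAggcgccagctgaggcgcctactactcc

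Fosb: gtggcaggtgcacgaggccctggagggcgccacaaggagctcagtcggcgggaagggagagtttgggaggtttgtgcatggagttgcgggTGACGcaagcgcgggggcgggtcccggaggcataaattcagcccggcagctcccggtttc

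Jun: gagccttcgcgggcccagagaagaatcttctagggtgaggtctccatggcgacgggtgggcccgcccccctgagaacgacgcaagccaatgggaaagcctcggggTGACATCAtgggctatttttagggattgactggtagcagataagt

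Dusp1: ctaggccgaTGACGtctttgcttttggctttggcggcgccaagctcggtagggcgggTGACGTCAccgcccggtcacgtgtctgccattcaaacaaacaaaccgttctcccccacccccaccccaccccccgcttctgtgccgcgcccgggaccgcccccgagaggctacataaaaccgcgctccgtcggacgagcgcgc

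Windows of 300 bases, 250 before the start and 50 from it on, were matched for 8 of the 10 members; Egr1 and Ier2 had none. TGACG on either strand stood in the windows of 5 of the 8 (Fos, Fosb, Junb, Dusp1 and Atf3), against 20.8% of all 32851 windows. TGACNTCA stood in those of Jun, 45 bases before its start, and Dusp1, 143 bases before its start, against 8.83% of all windows. In Dusp1 it overlaps the core, whereas the Jun match reads TGACATCA, without the core. TATAAA stood in those of Fos and Junb (13.6% of all). The Fos match lay 33 bases before its start, but the Junb match began at the annotated start and so was not upstream of it. The heat shock motif GAANNTTC stood in those of Jun and Hspa1a (7.86% of all). The AP-1 motif TGANTCA (7.81% of all windows) and the CArG box, the binding motif of serum response factor (1.63%), were in none of the 8 windows. Sites more than 250 bases upstream, or in Egr1 and Ier2, could not be found this way. A match describes letters in the window and not occupancy.

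Fos (gene ID 14281; chromosome 12, 86814851 to 86818219 in mm9), the transcription factor gene best known of the group, was detected in 19 of 49 cells (38.8%, with an exact 95% binomial confidence interval of 25.2 to 53.8%). Values ran from 0 through a median of 0 to 297 RPKM. The highest were 297 RPKM in cell 11, 222 in cell 14, 140 in cell 13, 139 in cell 20 and 109 in cell 39. Cells either had many Fos reads or next to none. In 18 cells it had 18 or more reads and at least 4.43 RPKM, in 5 cells 1 or 2 reads, and in 26 cells it was listed at 0, with no cell between 2 and 18 reads. The highest count was 1231 reads, in cell 11. The remaining detected cell was cell 7, where 5.62 RPKM was 1 read. Fos had an SD of log2(RPKM+1) of 2.75 over cells, above that of 96.0% of all genes, whose median was 1.65.

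Fosb (gene ID 14282; chromosome 7, 19888045 to 19895394), which encodes another Fos family member, had the same gap at a lower level. It was detected in 11 cells (22.4%, interval 11.8 to 36.6%), from 0 through a median of 0 to 59.8 RPKM in cell 14. The next were 30.9 RPKM in cell 44, 17.4 in cell 49, 16.1 in cell 23 and 15.9 in cell 19. It had 12 or more reads in 10 cells and 1 read in 2 cells, of which cell 3, at 4.15 RPKM, passed the threshold. In cell 44 Fosb was the only member detected, in the cell with the fewest genes of all, 3610.

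The Jun family genes lay low in many cells. Jun (gene ID 16476; chromosome 4, 94715727 to 94718913), the main partner of Fos in AP-1, was detected in 29 cells (59.2%, interval 44.2 to 73.0%), from 0 through a median of 2.32 to 51.2 RPKM. It stood out in 3 cells, at 51.2 RPKM in cell 20, 47.1 in cell 8 and 41.3 in cell 48, and the next value was 15.4 in cell 15. Jund (gene ID 16478; chromosome 8, 73221638 to 73224515), the family member known for steady expression, was above 0 in 41 cells, the most of any member, yet reached 1 RPKM in 10 cells only (20.4%, interval 10.2 to 34.3%). Its values ran from 0 through a median of 0.401 to 6.67 RPKM in cell 11. Of its 41 cells above 0, 21 had 1 or 2 reads, 17 had 3 to 9 reads and 3 had 10 or more, so that its detection rests on the threshold: 20 cells had 3 or more reads.

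Ier2 (gene ID 15936; chromosome 8, 87185230 to 87186751), a small nuclear immediate early gene, was the member detected most often, in 33 cells (67.3%, interval 52.5 to 80.1%). It ran from 0 through a median of 2.99 to 125 RPKM in cell 41, with 63.5 in cell 5 next. In contrast to Fos, its values filled the range without a gap: 10 cells had 3 to 9 reads and 24 had 10 or more. Dusp1 (gene ID 19252; chromosome 17, 26642536 to 26645417) was detected in 20 cells (40.8%, interval 27.0 to 55.8%), from 0 through a median of 0.265 to 63.2 RPKM in cell 28. It reached 56.0 in cell 41, 50.6 in cell 12 and 46.3 in cell 11. The highest Dusp1 cell, cell 28, had Fos and Egr1 listed at 0.

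Egr1 (gene ID 13653; chromosome 18, 35020861 to 35024610) was detected in 17 cells (34.7%, interval 21.7 to 49.6%), from 0 through a median of 0.236 to 308 RPKM in cell 14. The next values were 132 RPKM in cell 39, 114 in cell 38, 80.9 in cell 41 and 67.5 in cell 48. It had 10 or more reads in 13 cells and 1 or 2 reads in 15. The 1720 reads of Egr1 in cell 14 were the highest read count of any member in any cell. Without cells 3 and 7, Egr1 was detected in 15 cells, Fos in 18, Fosb in 10, Jun in 28 and Jund in 9, while the counts of Ier2 and Dusp1 did not change. Atf3 (gene ID 11910; chromosome 1, 192994176 to 193041918), a stress-induced transcription factor gene, was at 35.6 RPKM in cell 22 and listed at 0 in the other 48 cells. That cell had Jun at 4.07 and Ier2 at 2.05 RPKM, and Fos, Fosb, Dusp1 and Egr1 listed at 0. Such zeros need not mean absence: Tbp, a housekeeping gene, was also listed at 0 in 19 cells, and Hprt, another, in 6.

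**Figure D1:**
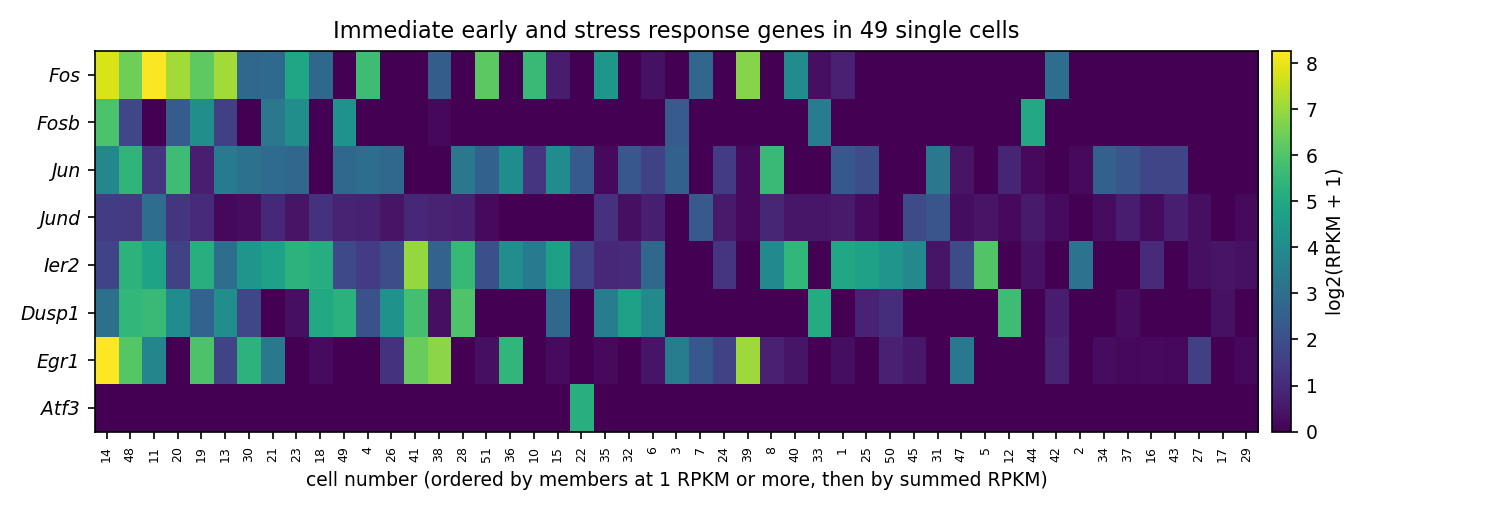
Levels of the 8 members as log2(RPKM + 1), 1 row per gene and 1 column per cell, with cells ordered by the number of members at 1 RPKM or more and then by summed RPKM. High Fos and Egr1 values lie mostly on the left, with cell 39 an exception, whereas Ier2 and Jun run across the plot and Atf3 fills 1 cell. The order is set by these same values, so the place of high values on the left is partly built in.

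**Figure D2:**
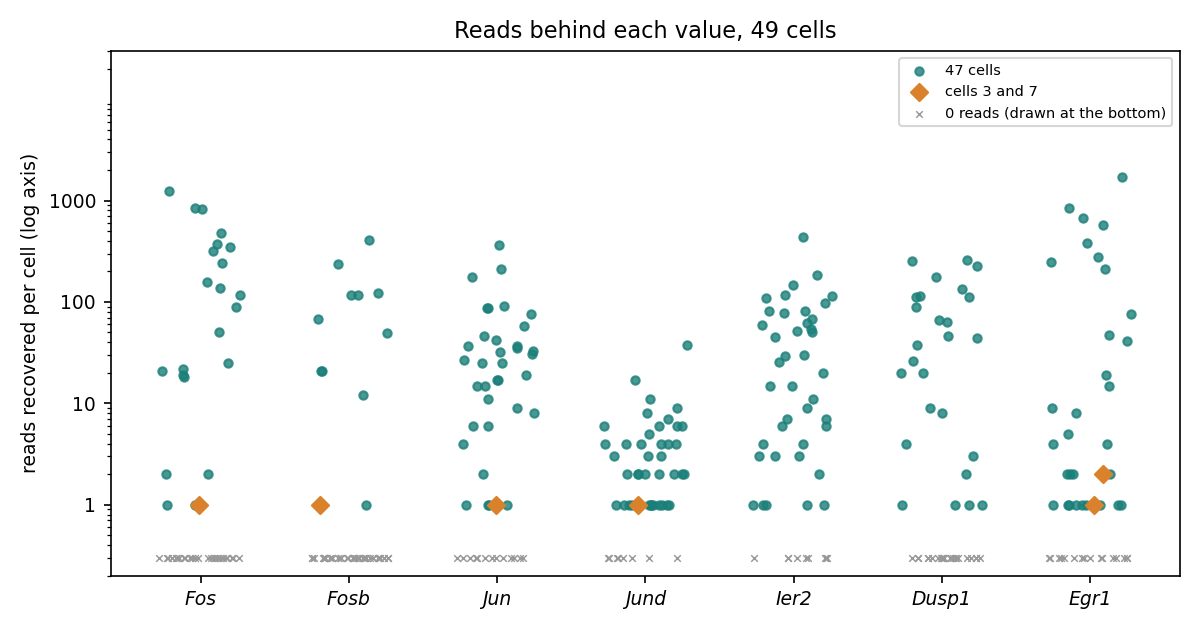
Reads recovered per cell on a log axis for the 7 members whose steps could be resolved, 1 point per cell, diamonds for the shallow cells 3 and 7, crosses for values of 0. Fos is empty between 2 and 18 reads, Jund stays at or below 38 reads, and the diamonds lie at 1 or 2 reads.

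By their mean over all cells the members held an ordinary place in the table. Fos averaged 27.3 RPKM, Egr1 18.4, Ier2 14.4, Dusp1 9.99, Jun 6.03, Fosb 3.51, Jund 0.787 and Atf3 0.726, where the median gene averaged 6.71 RPKM and was detected in 16 cells. RPKM is per length, so these levels can be set beside each other. Neighbours in this order do not differ beyond their spread over cells. The 5 highest cells held 67.9% of the summed RPKM of Fos, 77.8% of that of Egr1, 81.4% of Fosb, 57.6% of Jun, 53.0% of Dusp1, 48.7% of Jund and 45.1% of Ier2. Over all genes the median share was 71.1%, so concentration in a few cells was common in this table.

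A median of 3 of the 8 members was detected per cell, from 0 to 7. At least 1 was detected in 47 of 49 cells (95.9%, interval 86.0 to 99.5%) and 6 or more in 6 cells (12.2%, interval 4.63 to 24.8%). Cells 14 and 48 had 7 each, and cells 11, 13, 19 and 20 had 6 each. Cells 17 and 29 had none, although both held 1 read of Ier2. Of all member values, 35.7% reached 1 RPKM, beside 39.8% of all genes in the median cell. The summed RPKM of the members ran from 0.574 through a median of 44.5 to 614, the last in cell 14.

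The cells with most members were not alike in which gene led. Cell 14 combined Egr1 at 308, Fos at 222, Fosb at 59.8 and Jun at 13.1 RPKM with 2.17 RPKM of Ier2. Cell 48 had all of Fos (86.6), Egr1 (67.5), Dusp1 (43.4), Jun (41.3) and Ier2 (40.0 RPKM) between 40.0 and 86.6 RPKM. Cell 11 had the highest Fos and Jund, with Dusp1 at 46.3 and Egr1 at 12.5 RPKM, and Fosb listed at 0. Cell 20 had Fos at 139 and Jun at 51.2 RPKM, with Egr1 listed at 0. Cell 41 went the other way, with Ier2 at 125, Egr1 at 80.9 and Dusp1 at 56.0 RPKM and with Fos, Fosb and Jun listed at 0.

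Members tended to be detected in the same cells, though loosely. Of the 21 pairs of the 7 members found in 5 to 44 cells, 18 had more cells in common than the number for independent detection, which is the product of both counts over 49. That share was 85.7%, beside 58.1% of the 40046775 pairs of all genes in the same range of detection. The members themselves were detected in 10 to 33 cells, so the range is wider than theirs, and the 21 pairs reuse 7 genes. Without cells 3 and 7 the share was 20 of 21 pairs, beside 58.8% of all pairs. The excess depended on the threshold: at 0.1 RPKM it was 14 of 21 pairs, nearer to the 58.5% of all pairs, at 5 RPKM 14 of 15, beside 55.8%, and at 10 RPKM 13 of 15, beside 54.8%. Fos was shared with Fosb in 7 cells (4.27 if independent), with Jund in 8 (3.88), with Egr1 in 10 (6.59), with Dusp1 in 10 (7.76) and with Ier2 in 15 (12.8). Ier2 was shared with Dusp1 in 17 cells (13.5) and with Jun in 23 (19.5). The 3 pairs at or below independence all held Jun: 11 cells with Fos (11.2), 10 with Egr1 (10.1) and 5 with Jund (5.92). Fos or Fosb together with Jun or Jund, the makings of an AP-1 pair at the transcript level, were found in 17 cells, close to the 16.0 of independence. These 17 include cells 3 and 7, where each gene of the pair rested on 1 read, and the count is not given without them. All of Fos, Jun and Egr1 were found in 6 cells (12.2%, interval 4.63 to 24.8%; 3.90 if independent), which were cells 11, 13, 14, 21, 30 and 48.

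**Figure D3:**
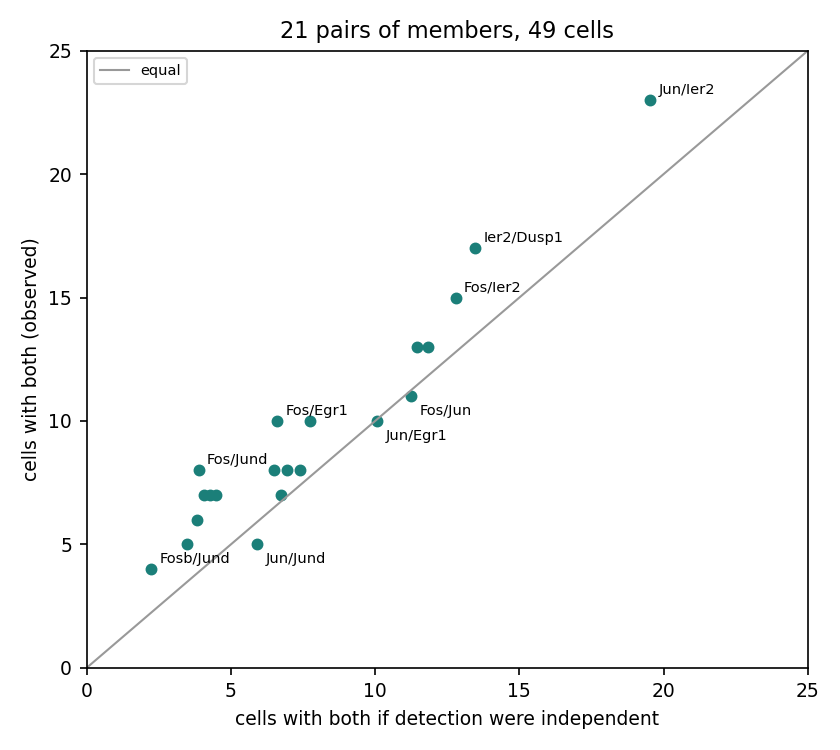
Cells that detected both members of a pair (vertical axis) against the number if detection were independent (horizontal axis), for 21 pairs in 49 cells; the line marks equality. All but 3 points, each a pair with Jun, lie above the line.

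The levels followed each other weakly. Over the 49 cells the median Spearman correlation of the 21 pairs was 0.177 (0.204 without cells 3 and 7), from -0.02 for Dusp1 with Egr1 to 0.345 for Fos with Fosb; it was 0.326 for Fos with Egr1 and near 0 for Jun with Egr1. The median over all gene pairs of the same range was 0.029. The points share a library per cell, with its depth and gene number. Among the 9 cells with Fos at 50 RPKM or more, 6 detected Egr1. Among the 8 cells with Egr1 at 30 RPKM or more, 6 detected Fos, and the exceptions were cells 36 and 41. Counted from the 19 cells with Fos and the 30 cells without it, Egr1 was detected in 10 and 7, Fosb in 7 and 4, and Jun in 11 and 18.

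Cells with more genes detected had somewhat more members. The Spearman correlation over 49 cells between members and genes detected was 0.360 (0.367 without cells 3 and 7). The 16 cells with the fewest genes (3610 to 4776) had a median of 2 members, the 17 cells in the middle 3 and the 16 cells with the most genes (5704 to 6510) 3. By gene, the correlation of level with genes detected was 0.369 for Ier2, 0.261 for Dusp1, 0.223 each for Fosb and Jund, 0.216 for Fos, 0.122 for Egr1 and -0.01 for Jun. Over all 13093 genes the median was 0.135, with quartiles of 0.023 and 0.239. Members detected went with relative depth at -0.26, so deeper libraries did not hold more of them. Cell 14 stood apart, with 7 members among 4309 genes. The part of gene detection in the sharing of members was not tested.

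**Figure D4:**
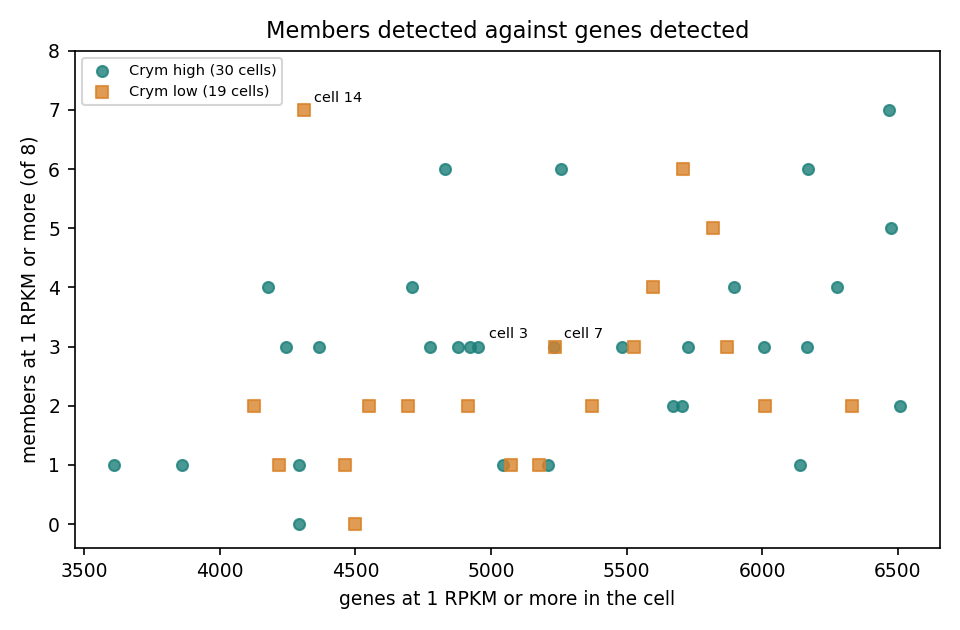
Members at 1 RPKM or more (of 8) against genes at 1 RPKM or more, 1 point per cell, with circles for the 30 cells high in Crym and squares for the 19 cells low in it. The upward trend is loose, cell 14 lies at 7 members with 4309 genes, and both symbols run from 0 to 7 members.

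Whether the members went with cell identity was asked first through Crym, the gene that drives the reporter: 30 cells had it at 10 RPKM or more and 19 below. The mean log2(RPKM+1) over the 8 members was 1.47 ± 0.91 in the Crym-high cells and 1.30 ± 1.01 in the Crym-low cells (SD over cells), a difference of 0.18 (0.21 without cells 3 and 7, and 0.33 without cell 14, a Crym-low cell). A difference of at least 1 in size was reached by 1 of the 8 members, beside 10.8% of all 13093 genes, and this share is near the background. That member was Dusp1, with 2.13 ± 2.33 in Crym-high and 1.10 ± 1.86 in Crym-low cells, a difference of 1.03 (1.18 without cells 3 and 7). Dusp1 was detected in 15 of 30 Crym-high cells (50.0%, interval 31.3 to 68.7%) and in 5 of 19 Crym-low cells (26.3%, interval 9.15 to 51.2%), and the ranges overlapped, 0 to 63.2 and 0 to 46.3 RPKM. Fosb was detected in 10 of the 30 Crym-high cells (33.3%, interval 17.3 to 52.8%) and in 1 of the 19 Crym-low cells (5.26%, interval 0.133 to 26.0%), but that 1 cell, cell 14, held the highest Fosb value of all. Its difference was 0.77 with cell 14 and 1.08 without it, which made Fosb a further member past 1 in size. Fos was detected in 40.0% of the Crym-high and 36.8% of the Crym-low cells, and Ier2 in 66.7% and 68.4%.

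Six2, the transcription factor gene of nephron progenitors, and Foxd1, that of stroma, gave 18 cells with Six2 only, 15 with Foxd1 only, 9 with both and 7 with neither. The mean log2(RPKM+1) over the members was 1.48 ± 0.98 in Six2-only cells and 1.42 ± 1.15 in Foxd1-only cells, a difference of 0.06. This value rests on few cells: without cell 14, whose Foxd1 value of 1.12 RPKM was just over the threshold, it was 0.24, and with both genes required at 10 RPKM it was 0.43. Again 1 of the 8 members reached a difference of at least 1, beside 16.5% of all genes, which is no more than the background. It was Jun, with 2.60 ± 1.82 in Six2-only and 1.19 ± 1.29 in Foxd1-only cells, and the difference was 1.32 without cells 3 and 7. Jun ran from 0 through a median of 5.31 to 51.2 RPKM in Six2-only cells and from 0 through 1.35 to 13.1 RPKM in Foxd1-only cells, so the groups overlapped. It was detected in 14 of 18 Six2-only cells (77.8%, interval 52.4 to 93.6%) and in 8 of 15 Foxd1-only cells (53.3%, interval 26.6 to 78.7%). Over all cells its correlation with Six2 was 0.38 and with Foxd1 -0.29. Below that size, Dusp1 and Fosb had differences of 0.71 and 0.35, and Egr1, Ier2, Fos and Jund of -0.86, -0.47, -0.38 and -0.28. Without cell 14 the difference was -0.41 for Egr1 and about 0 for Fos. Of the 2 cells with 7 members, cell 48 had Six2 only, and cell 14 counted as Foxd1 only by its value just over the threshold.

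The number of members went with the number of nephron progenitor list genes detected at 0.40 and with that of stroma list genes at 0.10. For mitosis genes (the G2/M list) it was 0.17. By member, the correlation of level with the nephron progenitor count was 0.42 for Fosb, 0.38 for Jun and 0.32 for Dusp1. It was 0.16 for Ier2, 0.15 for Jund, 0.13 for Fos, -0.03 for Egr1 and -0.11 for Atf3. Over all single genes the median was 0.046 for nephron progenitor and 0.039 for stroma. The list counts themselves went with genes detected at 0.355 for nephron progenitor, 0.381 for stroma and 0.647 for G2/M. The ureteric bud-like cell 25 also detected 12 of 18 stroma list genes, with Foxd1 at 51.7 RPKM, and was counted as Foxd1 only. It had Ier2 at 25.7 and Jun at 2.99 RPKM and no other member detected, and the endothelial-like cell 27 only Egr1 at 1.96 RPKM. No member was thus carried by those 2 cells.

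**Figure D5:**
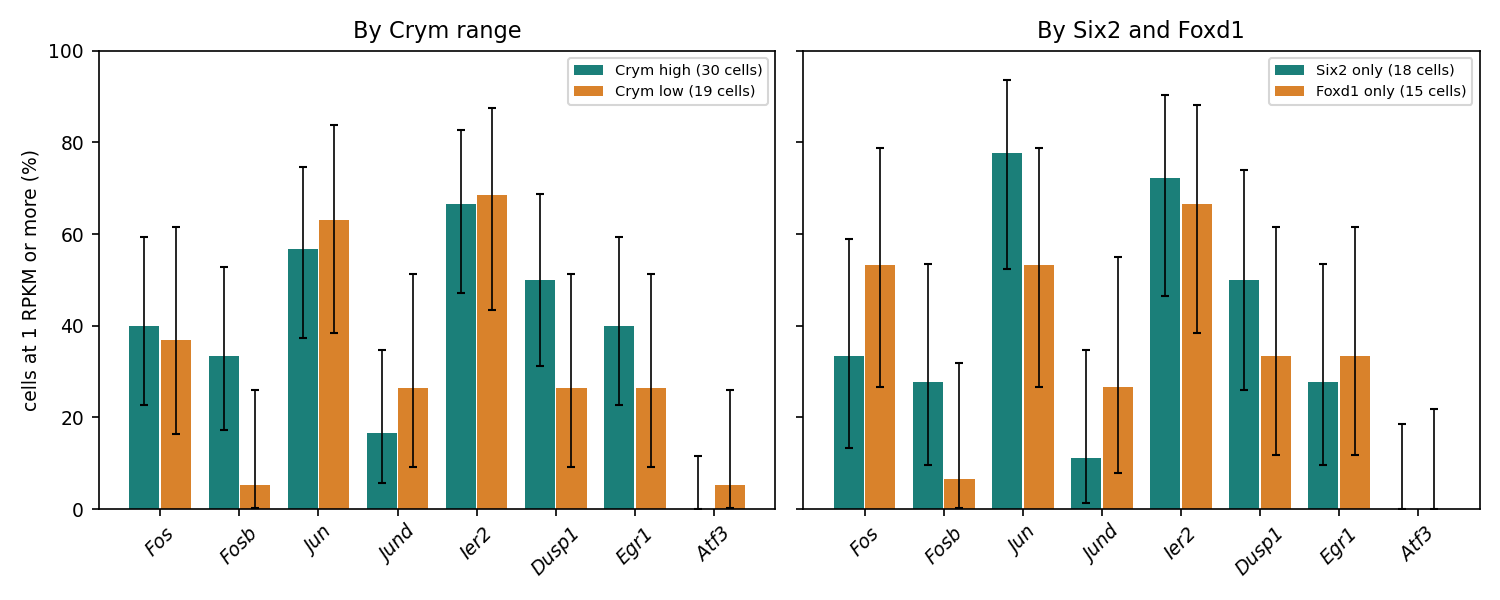
Share of cells that detected each member at 1 RPKM or more, by Crym range (left panel, high beside low) and for cells with Six2 only beside cells with Foxd1 only (right panel); bars of error are exact 95% binomial intervals over cells. The intervals of the paired bars overlap for every member.

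Other immediate early genes were mostly sparser than the median gene of the table. Of a list of 43, 37 were in the table, with a median of 8 cells per gene, beside 16 over all genes. Those detected in most cells were the antiproliferative gene Btg1 and the RNA decay gene Zfp36l1, in all 49 cells, the Krüppel-like factor gene Klf6 in 42, the polo-like kinase gene Plk2 in 37, the survival gene Mcl1 in 34 and the NF-kappaB inhibitor gene Nfkbia in 31. Of the 18 found in 10 or more cells, 14 (77.8%) had a positive correlation with the mean log2 level of the 8 members, with a median of 0.071, beside 65.4% and 0.058 over all 8414 such genes. Among feedback regulators of MAP kinase signalling, 12 of 14 were in the table, led by Spry2 in 46 cells, Dusp6 in 40, Dusp7 in 21 and Spry4 in 18. Of their 7 genes in 10 or more cells, 6 were positive, with a median of 0.092. Of the upstream genes (16 of 16 in the table), Mkl2, a coactivator of serum response factor, was detected in 46 cells, Creb1 in 40 and Mapk3 in 36, and the median correlation over the list was 0.034.

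The heat shock list ranged from chaperones at high levels in every cell to genes in few cells. Of 21 genes 19 were in the table, with a median of 48 cells per gene. Bag3, Hmox1, Hspa4l and Hspb1 were detected in only 7, 6, 4 and 1 cells. The chaperone genes Hsp90ab1 (median 1814 RPKM), Hspa8 (1602), Hsp90aa1 (392), Hspd1 (285), Hspe1 (208) and Hsp90b1 (253) were found in all 49 cells. Hspa8, the constitutive relative of Hspa1a, followed the member mean at 0.443, the heat shock factor gene Hsf2 at 0.436, Hspa4 at 0.382, Hsp90b1 at 0.339 and Hspa5 at 0.276, while Hsp90aa1 stood at -0.14, Hspe1 at -0.08, Hspd1 at -0.02 and Hsp90ab1 at 0.048. Hspa8 also went with genes detected at 0.441. The remaining list genes in 10 or more cells were Dnajb1 (0.229), Hspa9 (0.174), Dnaja1 (0.144), Hsph1 (-0.003), Hsf1 (-0.019) and Serpinh1 (-0.036). The median over the 15 list genes in 10 or more cells was 0.144, with 9 positive (60%). Over all such genes the median was 0.058, with 65.4% positive. From the integrated stress response list 7 of 10 genes were in the table: Atf4, its central transcription factor gene, was found in 43 cells, Ppp1r15a in 20, Xbp1 in 19 and Asns in 17. All 5 that were in 10 or more cells were positive, from 0.0025 for Xbp1 to 0.545 for Ppp1r15a, which encodes the phosphatase subunit that reverses this response. Ppp1r15a was highest in cell 36, at 217 RPKM.

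The genes most like each member over the 49 cells, among 8420 found in 10 or more cells, included no other member. For Fos they were Smurf2 (Spearman 0.528), a ubiquitin ligase gene, Spry2 (0.485), an inhibitor of receptor tyrosine kinase signalling, and Gps1 (0.482). For Egr1 they were 1600020E01Rik (0.548), Leprel2 (0.547) and Stx18 (0.492). For Jun they were the homeobox gene Meox2 (0.505), Eif4a2 (0.477) and Gigyf1 (0.473). For Ier2 they were Impdh2 (0.616), an enzyme gene of guanine nucleotide synthesis, Rg9mtd1 (0.574) and the replication gene Mcm2 (0.568). For Dusp1 they were Gltp (0.660), Tspyl5 (0.527) and Brca1 (0.524). For Fosb they were Cdh9 (0.486), Cdon (0.484) and Pot1a (0.482), and for Jund Trip11 (0.572), Ints6 (0.477) and Pddc1 (0.470). These genes were picked as the highest of 8420 values for each member, and how high such a pick runs by itself was not tested. Among the members themselves, Fosb and Egr1 ranked 124 and 173 in likeness to Fos.

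The mean log2 level of the 8 members was most like Eif2b1 (0.560), a subunit gene of the translation initiation exchange factor on which the integrated stress response acts. It was followed by Ppp1r15a (0.545), Myst4 (0.545), Uggt1 (0.544), Ddrgk1 (0.539), Harbi1 (0.536), Phrf1 (0.536), Cacnb3 (0.508), Dennd2a (0.505) and Cdk16 (0.503). These are the highest of 8414 values, and Eif2b1 itself went with genes detected at 0.522.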

How the data were processed

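The authors deposited RPKM values, per the file headers, and every listed gene exceeded 3 RPKM in some cell; the count of such cells that the authors deposited per gene equalled that from the values in all 13093 genes. The submitters' processing notes name TopHat 1.4.1, DESeq and mm9 without a role or order; no source used here gives the counter or annotation. All cells stand on 1 run and lane, per the file headers. Columns were matched to cells by cell number (0 columns of cells unused); no cell was filtered and no doublet caller was run, since chambers were inspected under a microscope, per the labels.

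Relative depth was found from the pile-up of ratios of low values (below 8 RPKM) to those of cell 1, in windows of 2e-05 on a natural log scale. The estimate was exact on simulated data that held an even trace of reads, and off by a factor of 2 in some cells without such a trace. The whole numbers of reads check it only in part, since a depth set too high by a factor of 2 would also give whole numbers. Without molecular identifiers, reads are amplified copies, and the chemistry keeps no strand. Intervals are exact Clopper-Pearson intervals and cover counting error only. Levels were averaged as log2(RPKM+1), a pseudocount of 1, which understates the change of low genes. Members, lists and tests were chosen with earlier results of these data known. Named genes are all members, the 4 or 6 list genes detected in most cells, the 3 genes most like a member and the 10 most like the member mean. A list gene that this rule would name is not reported here. Cells named for single values, and the heat shock genes beyond the 6 in most cells, were chosen after the values were seen. Python 3.11.15, NumPy 2.4.6, pandas 2.3.3 and SciPy 1.17.1 were used.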

Additional observations from a re-analysis of the deposited data

How the results depend on the processing

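Of 47 alternatives to the 7 main results, 34 kept the value within 1.5 times and 13 did not. Counts cannot be negative, so only correlations and differences could turn a sign, and none did. Pairs were compared by their count alone. The 14 of 21 pairs at 0.1 RPKM thus passed as kept beside 18 of 21, although 58.5% of all pairs were above independence there. The median number of members per cell was 1 with detection at 10 RPKM. The count of cells with Fos, Jun and Egr1 was 13 at 0.1 RPKM and 2 at 10 RPKM. The differences in member level between cell classes were the least steady, although small beside the SD over cells. By Crym it was 0.352 with a pseudocount of 0.1, 0.384 with summed RPKM, 0.098 without cells 25 and 27 and 0.327 without cell 14. Between Six2-only and Foxd1-only cells it was 0.171 with a pseudocount of 0.1, 0.301 with summed RPKM, 0.432 with both marker genes at 10 RPKM, 0.023 without cells 3 and 7, 0.027 without cells 25 and 27 and 0.243 without cell 14. Leaving out cell 14 and detection by reads were chosen after the data were seen; the sharing of pairs stood at 17 of 21 without cell 14. The cause of these shifts was not tested. For single members 14 of 62 alternatives left the interval of the share of cells. These were thresholds acting on Jun, Jund, Ier2 and Egr1, with Jund in 41 cells at 0.1 RPKM and in 0 at 10 RPKM. Fos kept 18 to 23 cells at all thresholds up to 5 RPKM. No paired analysis was possible because all cells form 1 group. Depth limits chiefly cells 3 and 7.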
